A study of Homo sapiens with 4 samples.

Results

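S100 genes encode small calcium-binding proteins, and 10 of them were followed here in HCT116 cells, a human colon cancer line, with and without hydrogen peroxide (H2O2). They are S100P and the S100A genes S100A2, S100A3, S100A4, S100A6, S100A10, S100A11, S100A13, S100A14 and S100A16. The genes were taken by symbol from the authors' table of 16376 genes, and all 10 were found. The symbols were picked with the Control and H2O2 means of that table in view, so the levels, folds and calls of these 10 genes describe the data and do not test anything. RNA-seq libraries were made from poly(A)-selected RNA of 2 untreated samples (Control) and 2 samples treated with H2O2. The labels give neither dose nor exposure time, and they do not say whether the samples of a group were separate cultures, so spread between libraries can be technical. The table holds group means, from which the whole read counts of the 4 libraries were recovered. It ties no library to a replicate number, so the libraries of each group are called the deeper and the shallower by their total reads, which ranged from 6858809 to 7365032 over the listed genes. The table labels its groups only by letter, and the first was read as Control because its title puts control first. All directions depend on this reading.

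S100 proteins bind calcium through a pair of EF-hand motifs, mostly act as dimers, and change shape on calcium binding so that they can grip target proteins. Targets inside the cell include annexins, cytoskeletal proteins and chaperone cofactors. Several S100 proteins are also secreted and bind the receptor RAGE, which the gene AGER encodes. Most S100A genes lie together in a cluster on the long arm of chromosome 1, within a region rich in genes of epithelial differentiation, while S100P lies alone on chromosome 4. Epithelia and colon carcinomas commonly express several of them.

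Promoter sequences are shown for 4 of the genes, chosen as the gene with the largest difference (S100P), the S100A gene with the largest fold (S100A3), a highly expressed gene with a TATA box like that of S100P (S100A4), and a gene with none of the searched motifs (S100A10). Each is the 250 bases before a RefSeq start on the GRCh38.p14 assembly, a later build than the one of the table, written in the direction of the gene. They lie at chr4:6693628-6693877 (plus strand, S100P), chr1:153545807-153546056 (minus strand, S100A4), chr1:153549259-153549508 (minus strand, S100A3) and chr1:151993860-151994109 (minus strand, S100A10). Capitals mark matches to any of the searched motifs on either strand.
S100P: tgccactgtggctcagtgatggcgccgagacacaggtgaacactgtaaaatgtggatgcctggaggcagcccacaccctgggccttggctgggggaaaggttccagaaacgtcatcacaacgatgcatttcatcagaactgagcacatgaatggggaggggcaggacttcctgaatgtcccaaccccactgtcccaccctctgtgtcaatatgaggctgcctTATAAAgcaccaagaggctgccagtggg
S100A4: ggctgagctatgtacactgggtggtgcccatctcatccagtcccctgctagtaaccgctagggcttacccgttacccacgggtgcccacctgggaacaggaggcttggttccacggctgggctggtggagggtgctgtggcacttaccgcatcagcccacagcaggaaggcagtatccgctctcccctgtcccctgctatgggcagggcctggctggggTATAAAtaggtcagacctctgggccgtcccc
S100A3: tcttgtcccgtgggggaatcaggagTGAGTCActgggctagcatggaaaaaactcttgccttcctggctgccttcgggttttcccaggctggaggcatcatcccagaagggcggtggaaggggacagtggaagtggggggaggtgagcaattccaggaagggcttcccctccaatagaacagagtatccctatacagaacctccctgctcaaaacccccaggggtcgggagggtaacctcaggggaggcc
S100A10: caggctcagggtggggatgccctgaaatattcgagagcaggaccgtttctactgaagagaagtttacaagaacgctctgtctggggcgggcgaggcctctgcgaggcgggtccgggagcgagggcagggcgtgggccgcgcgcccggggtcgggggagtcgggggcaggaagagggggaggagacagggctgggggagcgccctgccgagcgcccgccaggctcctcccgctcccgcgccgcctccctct

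The motifs searched on both strands were AP-1 (TGANTCA), the cyclic AMP response element (TGACGTCA), the antioxidant response element (TGACNNNGC), a heat shock element (GAANNTTC), an EGR1 motif (GCGTGGGCG) and a TATA box (TATAAA). RefSeq entries were matched for 10 of 10 genes and gave 14 windows, since some genes have several starts. S100P held a TATA box match 28 bases before its start and no other match. S100A4 held one at 31 bases, and a start of S100A13 held one at 29 bases. A TATAAA match was found in 3 of the 14 windows and in 10.7% of 35116 windows of the same length over all genes. AP-1 matches were found in 2 of the 14 windows, 225 bases before the start of S100A3 and 52 bases before a start of S100A2, against 6.57% of all windows. Antioxidant response element matches were found in 2 of the 14, in S100A14 and at another start of S100A13, against 10.9% of all. The other 3 motifs had 0 matches in the 14 windows, against 1.65% of all windows for the cyclic AMP response element, 5.78% for the heat shock element and 0.721% for EGR1. No match overlapped a match to another motif in the windows shown. A match describes letters and is not a bound site.

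In untreated cells the 10 genes covered a wide range of levels. Per 1000 bases of exonic length, S100A6 had the highest Control mean, at 5224 normalized counts, followed by S100A4 at 1956, S100A2 at 777, S100A10 at 713 and S100A16 at 486. S100A14 stood at 212, S100A11 at 110, S100A13 at 77.7, S100A3 at 45.4 and S100P at 1.93 on the same scale. The Control libraries of S100A2 and S100A10 overlapped on this scale, while those of every other pair of neighbours in the order did not. The order was the same with H2O2, and the same in Control with the longest transcript as the length. S100A6, also called calcyclin, gave 43.6% to 49.1% of the reads of the 10 genes in each library. Together the genes held 0.143% and 0.163% of all listed reads in the deeper and shallower Control libraries and 0.182% and 0.175% in the H2O2 libraries. The combined share was thus slightly larger in both treated libraries than in either control.

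**Figure D1:**
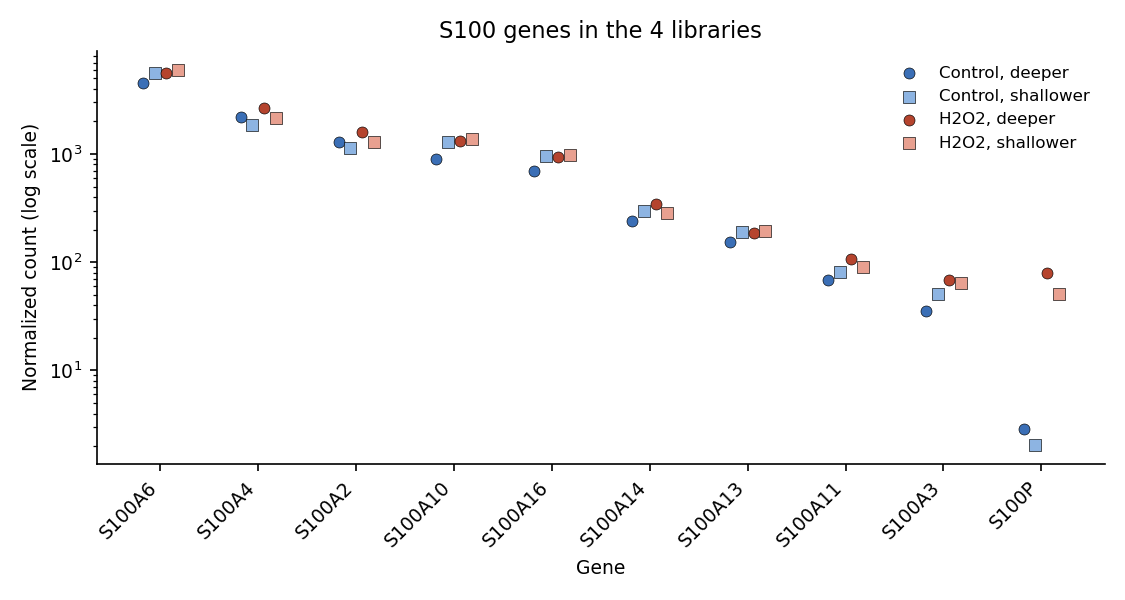
Normalized counts (log scale, y axis) of the 10 S100 genes (x axis, by Control mean) in each library, with Control in blue and H2O2 in red, circles for the deeper and squares for the shallower library of a group. S100P moves from 2.88 and 2.05 to 79.2 and 51.0, while the points of the S100A genes lie close together.

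S100P stood apart from the rest of the family. It encodes a protein that binds ezrin, a linker of membrane and actin, and that can be secreted to bind RAGE. It had 3 and 2 reads in the deeper and shallower Control libraries and 82 and 49 reads in the deeper and shallower H2O2 libraries. Both Control libraries were near 0, and both H2O2 libraries lay far above them, with no overlap. The authors' deposited table gives a 26.4-fold higher mean with H2O2 (65.1 against 2.46 normalized counts), a log2 fold change of 4.72. From the summed reads, 131 against 5, the ratio was 26.5 with an exact 95% interval of 11.1 to 82.9, which covers counting error only. On the log2(normalized count + 1) scale, which understates a gene of so few control reads, the difference was 4.23 ± 0.39 (SE, limma, 2 libraries per group).

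The size of the S100P value depends on very few control reads, and so does its place in the table. By deposited fold it ranked 7th of the 16375 genes with a finite fold and 4th of 13162 protein-coding genes. The table lists no gene with a mean over both groups under 5.46, so S100P, with a Control mean of 2.46, is listed through its level with H2O2. A Control mean under 5 together with an H2O2 mean of at least 50 was found in 2 listed genes, S100P and CTD-3247F14.2, of which S100P was the 1 annotated as protein coding. The genes whose values over the 4 libraries were most like those of S100P, among 12118 genes with a mean of at least 50, were MIR663A (distance 0.594 on the centred log2 scale), FOSB (0.760) and BZRAP1 (1.06). MIR663A is a microRNA locus, and FOSB encodes a subunit of the AP-1 transcription factor. Their deposited folds were 26.7, 16.7 and 10.5. S100P itself had a mean of 33.8 over both groups, and other genes with a mean under 50 were not compared with it.

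No other member passed the authors' threshold. At an adjusted p under 0.05, 1 of the 10 genes was called, S100P, against 7.19% of all listed genes in either direction and 2.58% called higher. limma on the recovered libraries also called S100P alone, against 4.1% of all genes in either direction and 1.52% higher. These counts describe the genes, because the genes were picked from the same comparison. The other 9 genes all had a higher mean with H2O2, with deposited log2 fold changes from 0.14 to 0.62 and a median of 0.25. A value above 0 was found for 8191 of all 16376 listed genes, whose median was 0.00029.

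**Figure D2:**
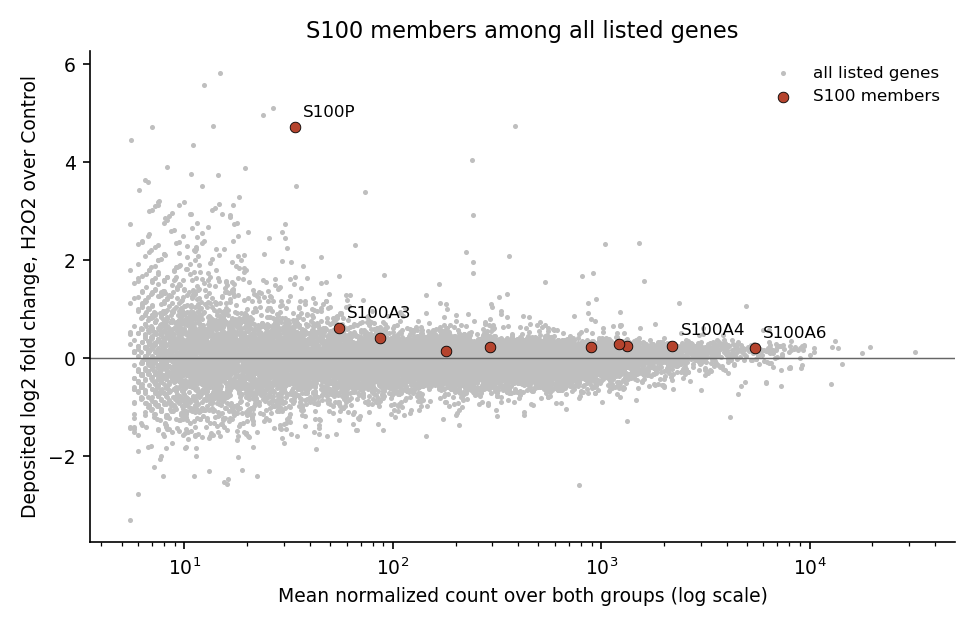
Deposited log2 fold change of H2O2 over Control (y axis) against the mean normalized count over both groups (log scale, x axis) for each listed gene with a finite fold in grey and the 10 S100 genes in red. S100P lies at 4.72 and the other 9 S100 genes lie slightly above 0, from 0.14 to 0.62.

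S100A3, a cysteine-rich protein best known from the hair cuticle, had the largest fold among the S100A genes. It had 37 and 50 reads in the deeper and shallower Control libraries and 71 and 62 with H2O2, or 35.5 and 51.3 against 68.5 and 64.5 normalized counts. The groups did not overlap, and the difference was 0.63 ± 0.24 on the log2(normalized count + 1) scale (SE, limma, 2 libraries per group). S100A11, which binds annexin A1, had 71 and 79 Control reads and 111 and 87 with H2O2. Its groups did not overlap either (68.1 and 81.1 against 107 and 90.5 normalized counts), with a difference of 0.40 ± 0.20 on that scale. These are also the S100A genes with the fewest reads.

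S100A10 is the partner of annexin A2 in a membrane-binding complex and no longer needs calcium to bind it. It had 906 and 1293 normalized counts in the deeper and shallower Control libraries and 1309 and 1373 with H2O2. The shallower Control library lay just under the H2O2 libraries, and the deeper Control library far below them. The difference was 0.31 ± 0.14 on the log2(normalized count + 1) scale (SE, limma, 2 libraries per group), while the Control libraries differed from each other by 0.51. ANXA2, which encodes annexin A2, had 2044 and 2453 Control normalized counts and 2667 and 2725 with H2O2, a deposited fold of 1.20 that did not pass (adjusted p = 0.228, authors' deposited table). Its groups did not overlap, and its value is uncertain because 12.99% of the 50-base words of its longest transcript also occur in transcripts of other genes.

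S100A6 and S100A16 had their low value in the same library as S100A10. S100A6, which binds the ubiquitin ligase adaptor that CACYBP encodes, had 4487 and 5659 Control normalized counts and 5633 and 6034 with H2O2. S100A16, a widely expressed member, had 689 and 965 Control counts and 939 and 989 with H2O2. In both genes the deeper Control library was low, the other 3 libraries lay close together, and the groups overlapped. S100A14, an epithelial member, had 242 and 300 Control counts and 345 and 287 with H2O2, and S100A13, which takes part in the release of the growth factor FGF1, had 155 and 189 against 187 and 192. Their groups overlapped as well. S100A13 is uncertain, since 33.5% of its exonic bases are overlapped by other genes and whether the counting used strand is not given in the sources used here.

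S100A4 and S100A2 were high in the deeper library of each group. S100A4, known as metastasin, binds the heavy chain of nonmuscle myosin and had 2174 and 1836 Control normalized counts against 2642 and 2142 with H2O2, with overlapping groups. S100A2, a largely nuclear protein of epithelial cells, had 1292 and 1145 Control counts against 1606 and 1293 with H2O2. The S100A2 groups were separated by less than 1 normalized count (1292.1 against 1292.9), a gap far smaller than that between the libraries of either group. The differences were 0.25 ± 0.13 for S100A4 and 0.24 ± 0.12 for S100A2 on the log2(normalized count + 1) scale (SE, limma, 2 libraries per group).

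Across the 10 genes, groups did not overlap for 5 (S100P, S100A2, S100A3, S100A10 and S100A11), all of them higher with H2O2. Over all listed genes, 26.3% had groups that did not overlap and were higher, and 25.6% had such groups and were lower. For many of the S100A genes, spread between the Control libraries was of the size of the differences with H2O2. For S100P the log2 difference with H2O2 (4.23, limma) was far larger than that between the Control libraries (-0.34, shallower over deeper). The Control libraries differed by a median of 0.32 on the log2 scale in either direction over the 10 genes, against 0.17 over all genes with a mean of at least 50. For the H2O2 libraries the corresponding medians were 0.17 and 0.11. In 5 of the 9 S100A genes the Control libraries differed by more than the groups did. The shallower Control library was the higher for 7 of the 10 genes and the lower for S100P, S100A2 and S100A4, against 51.2% of all listed genes higher there.

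The differences of the S100A genes changed with the Control library they were set against. Against the deeper Control alone, the H2O2 mean of S100A10 was higher by 0.57, that of S100A16 by 0.48 and that of S100A6 by 0.38 on the log2(normalized count + 1) scale. Against the shallower Control alone the same values were 0.052, -0.0010 and 0.044. S100A2 and S100A4 went the other way, at 0.17 and 0.14 against the deeper and 0.34 and 0.38 against the shallower. S100P was at 4.09 and 4.44. In limma without the shallower Control, 6 members were called (S100P, S100A3, S100A6, S100A10, S100A14 and S100A16), against 22.2% of all genes in that fit. Without the deeper Control 3 were called (S100P, S100A2 and S100A4), against 8.52% of all genes. In both of these fits the spread between libraries comes from the H2O2 group alone. With the deeper or the shallower H2O2 library left out instead, S100P was the 1 member called each time, against 1.73% and 3.13% of all genes.

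**Figure D3:**
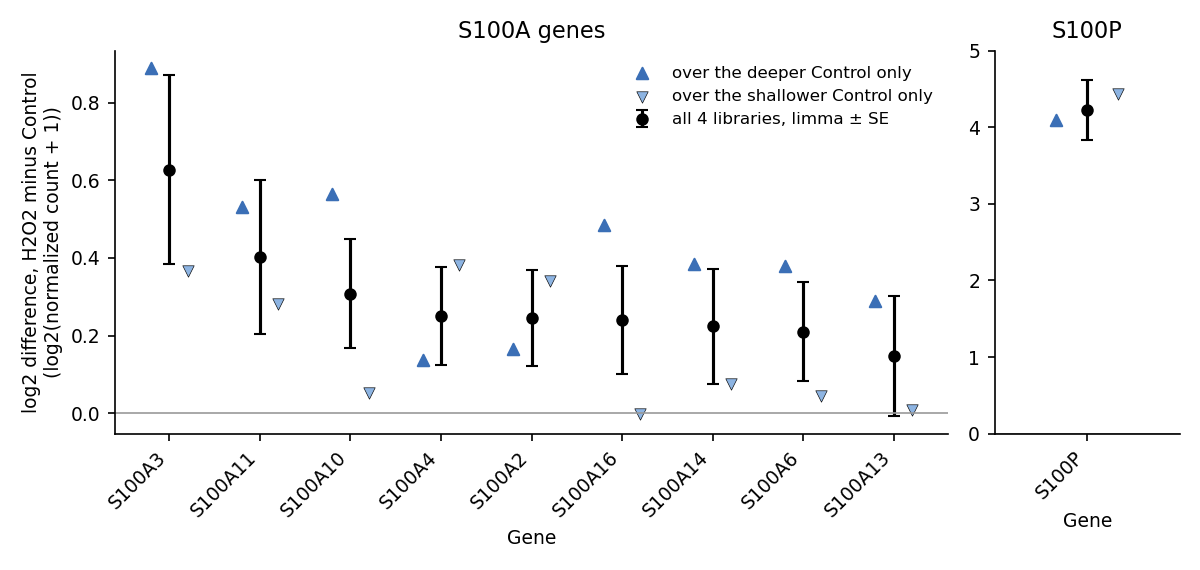
Difference of H2O2 minus Control (y axis, log2(normalized count + 1)) for each S100 gene (x axis), as the limma estimate over the 4 libraries ± SE (black) and as the H2O2 mean over the deeper (upward triangles) or the shallower (downward triangles) Control library alone, with S100P on its own axis. S100A10 moves from 0.57 to 0.052 and S100A4 from 0.14 to 0.38 with the choice of Control, while S100P stays at 4.09 and 4.44.

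The S100 transcripts are short, and short genes are few in the table. The median exonic length of the 10 genes was 1279 bases, against 4935 bases for the listed genes with a length, of which 12.9% were no longer than the longest member. After a correction of each library for length, added after the data were seen, the median log2 difference of the 10 genes was 0.10, against 0.25 without it. The median of all genes with a length, the only genes in that fit, was 0.012. S100P stood at 4.08 and S100A3 at 0.49 after the correction. S100A2, S100A4, S100A6 and S100A13 stood at 0.098, 0.11, 0.070 and 0.016.

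Outside the 10 genes, S100A1 and S100A5 were the other S100 proteins in the table. S100A1, best known from heart muscle, had 35 and 30 Control reads and 31 and 32 with H2O2, and S100A5 had 44 and 44 against 47 and 48. Their deposited log2 fold changes were -0.026 and 0.13, and neither passed. S100A1 is uncertain, since 18.3% of its exonic bases are overlapped by genes on the opposite strand, S100A13 among them. S100PBP, which encodes a nuclear binding partner of S100P, had 347 and 305 Control normalized counts and 291 and 314 with H2O2, and did not pass (log2 fold change -0.11, adjusted p = 0.755, authors' deposited table). The groups of S100PBP overlapped.

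Of 24 listed genes for S100 binding partners, the authors' deposited table called 2 lower, none higher and 22 not at all, against 2.58% of all genes higher and 4.62% lower. limma on log2(normalized count + 1) of all 4 libraries called none of the 24, against 4.1% of all genes. It had 8 of the 24 at an unadjusted p under 0.05, against 3302 of all 16376 genes. The authors' test had 6 of the 24 at that level, against 3216 of all 16376 genes. After the length correction limma called 2, AGER and ANXA2, against 5.14% of the genes with a length. AGER, which encodes the S100 receptor RAGE, had 124 and 146 Control normalized counts and 86.9 and 82.2 with H2O2, and fell to 0.627 of its Control mean (adjusted p = 0.0231, authors' deposited table). limma put it just outside the threshold (adjusted p = 0.0527). It was inside without the deeper Control (adjusted p = 0.00803, limma), after the length correction (0.00883) and with scaling by total counts. It was outside without the shallower Control (adjusted p = 0.0634, limma) and when the deeper or the shallower H2O2 library was left out (0.161 and 0.202). AHNAK, a giant scaffold that binds the complex of S100A10 and annexin A2, fell to 0.677 of its Control mean (adjusted p = 0.00178, authors' deposited table). Its Control libraries lay far apart, at 6827 and 4367 normalized counts while the H2O2 libraries stood at 3697 and 3886. It was outside limma's threshold (adjusted p = 0.0815). The log2 difference of AHNAK was -0.85 without the shallower Control and called there (adjusted p = 2.87e-25, limma), and -0.20 without the deeper and not called (adjusted p = 0.0822, limma). After the length correction it was -0.27 (adjusted p = 0.201, limma).

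CACYBP had a fold of 1.29 (adjusted p = 0.0771, authors' deposited table), and 20.9% of its 50-base words also occur elsewhere among transcripts. The chaperone gene FKBP4 had a fold of 1.22 (adjusted p = 0.177, authors' deposited table). The ezrin gene EZR and the myosin gene MYH9, partners of S100P and S100A4 named here after their values were seen, stood at 0.075 and -0.047 (log2 fold change, authors' deposited table). The median of the 24 genes was 0.056, against 0.00029 for all genes.

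Annexins are calcium-dependent membrane-binding proteins, and several take S100 proteins as partners. ANXA1, ANXA2, ANXA5, ANXA6 and ANXA11 are also among the binding partners above, so the lists share these genes. Of 10 listed annexin genes the authors' deposited table called none, against 7.19% of all genes called. It had 1 at an unadjusted p under 0.05, against 3216 of all 16376 genes. limma with all 4 libraries and no length correction also called none, against 4.1% of all genes called. It had 4 at an unadjusted p under 0.05, against 3302 of all 16376 genes. It called ANXA2 after the length correction (adjusted p = 0.049965), ANXA1 without the deeper Control, and ANXA1, ANXA2, ANXA3 and ANXA5 without the shallower Control, the fit that called 22.2% of all genes. Of the annexins 9 had a log2 fold change above 0, against 8191 of all 16376 genes. The median of the annexins was 0.23. ANXA1 had 3939 and 4061 Control normalized counts and 4624 and 4972 with H2O2, a fold of 1.20 (adjusted p = 0.285, authors' deposited table). ANXA3 and ANXA5 had folds of 1.19 and 1.18, and ANXA10 one of 1.16 (adjusted p = 0.263, 0.297 and 0.488, authors' deposited table). Groups did not overlap for 9 of the 10 annexins, ANXA11 being the exception, against 26.3% of all genes not overlapping and higher.

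Of 48 other EF-hand genes the authors' deposited table called 1 lower, none higher and 47 not at all, against 4.62% of all genes lower and 2.58% higher. The median log2 fold change of the list was 0.12, and 39 of the 48 were above 0, against 8191 of all 16376 genes. Groups did not overlap and were higher for 27, against 26.3% of all genes. For 4 they did not overlap and were lower, against 25.6% of all genes. CALML4, a calmodulin-like gene, fell to 0.623 of its Control mean (adjusted p = 0.00228, authors' deposited table, and 0.02004 in limma). That value is uncertain, because 99.0% of the words of its longest transcript occur in transcripts of other genes, and limma did not call it without the shallower H2O2 library (adjusted p = 0.158). The calmodulin gene CALM2 and the calpain subunit gene CAPNS1 had folds of 1.26 and 1.24. The myosin light chain gene MYL9 and the centrin gene CETN2 had folds of 1.26 and 1.27. None of these passed (adjusted p from 0.0986 to 0.145, authors' deposited table). limma with all 4 libraries called CALML4 alone of the 48, against 4.1% of all genes. After the length correction limma also called CALM2 (adjusted p = 0.0198), against 5.14% of the genes with a length. The limma log2 differences of CALM2, CAPNS1, MYL9 and CETN2 were 0.30, 0.18, 0.27 and 0.19 without the deeper Control. Without the shallower Control they were 0.36, 0.46, 0.40 and 0.53.

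Genes beside the S100A cluster had log2 fold changes on both sides of 0. RefSeq places 62 protein-coding genes from S100A10 to S100A13, of which 12 are listed. S100A1 lies within the span of S100A13 and was counted neither there nor as a neighbour. The 10 listed genes next to the cluster on each side were taken by their order on GRCh38.p14. The authors' deposited table called none of these 20 genes, against 7.19% of all genes called. It had 5 at an unadjusted p under 0.05, against 3216 of all 16376 genes. limma with all 4 libraries called none either, against 4.1% of all genes called. It had 6 at an unadjusted p under 0.05, against 3302 of all 16376 genes. Of the 20 genes 11 were above 0 and 9 below, and their median log2 fold change was 0.041. The 3 with the smallest adjusted p were POGZ, DENND4B and SNX27, at log2 fold changes of -0.37, -0.31 and -0.30 (adjusted p = 0.0609, 0.164 and 0.169, authors' deposited table). The difference between the cluster and its neighbours was not tested.

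**Figure D4:**
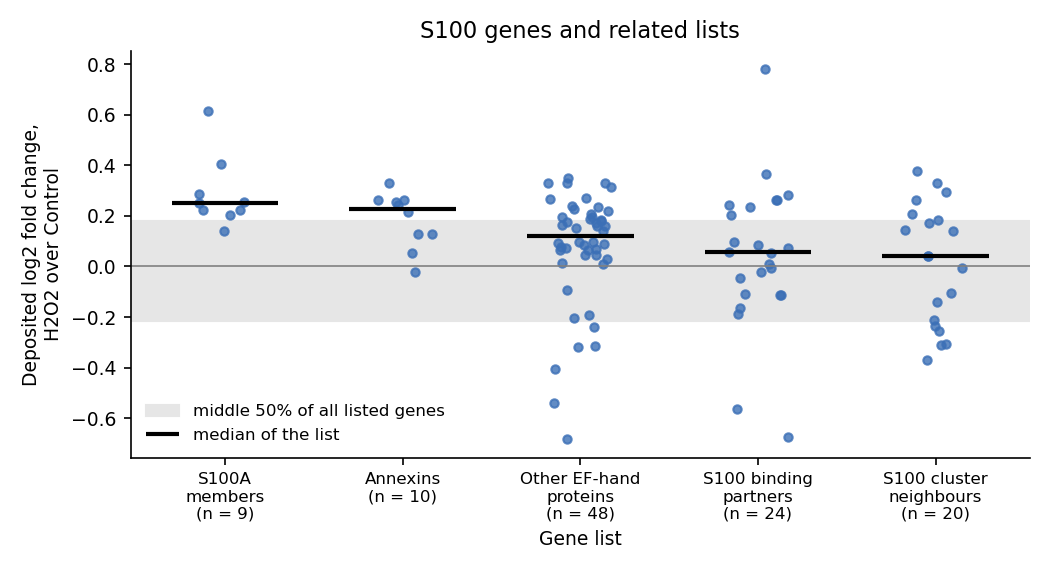
Deposited log2 fold change of H2O2 over Control (y axis) for each gene of 5 lists (x axis), with the median of each list as a black bar and the middle 50% of all listed genes as a grey band. The 9 S100A genes have a median of 0.25, the annexins 0.23, the other EF-hand genes 0.12, the binding partners 0.056 and the neighbours of the cluster 0.041. The partner list shares ANXA1, ANXA2, ANXA5, ANXA6 and ANXA11 with the annexins and NUCB1 with the other EF-hand genes. In limma after the length correction, the S100A genes stood at 0.098, the annexins at 0.17 and the other EF-hand genes at 0.12.

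Markers of the labelled cell type were present, and those of other types were mostly unlisted. Of 12 colon epithelial markers 9 were listed, none called, with a summed level of 8359 to 9954 normalized counts in the Control and 10021 to 10483 in the H2O2 libraries. Of 12 leukocyte markers 4 were listed, and PTPRC, LYZ, S100A8, S100A9 and S100A12 were not among them. The summed leukocyte markers ranged from 21.1 to 33.9 normalized counts in Control and from 52.0 to 69.5 with H2O2. CSF1R had 2 and 1 Control reads and 12 and 15 with H2O2, and CD14 had 5 and 3 against 19 and 10, and both were called higher in the authors' deposited table (adjusted p = 6.87e-04 and 0.0270). limma called CSF1R with all 4 libraries (adjusted p = 0.0151) but not with the deeper or the shallower H2O2 library left out (0.0558 and 0.150), and did not call CD14 (adjusted p = 0.0794). ITGAM (11 and 15 Control reads, 32 and 13 with H2O2) and CD68 (4 and 14 against 9 and 12) were the other listed leukocyte markers. Their groups overlapped and neither was called (adjusted p = 0.305 and 0.918, authors' deposited table). Over all listed genes, 2.58% were called higher. CSF1R and CD14 moved in the same direction as S100P, and their part in its difference was not tested. Of 8 fibroblast markers 3 were listed, with sums of 933 to 1017 in Control and 754 to 813 with H2O2, and COL1A1 was called lower (adjusted p = 0.0211, authors' deposited table), which limma also did with all 4 libraries (0.0343) but not with the deeper or the shallower H2O2 library left out (0.303 and 0.291) or after the length correction (0.105). Over all listed genes, 4.62% were called lower. COL3A1 went the other way from COL1A1, with Control and H2O2 means of 200 and 214 normalized counts. PDGFRB had means of 21.7 and 16.6. Neither was called (adjusted p = 0.842 and 0.679, authors' deposited table). Of 6 endothelial markers 2 were listed (sums of 85.3 to 112 against 68.5 to 71.8) and of 9 keratinocyte markers 1 (242 to 269 against 247 to 269), with none called.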

How the data were processed

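Gene expression was measured by poly(A) RNA-seq in 2 Control and 2 H2O2 samples of HCT116. The submitters' processing notes list STAR, HTSeq, DESeq, Trim Galore, FastQC and CASAVA 1.8 with the build hg19 and no roles or settings. The sources used here do not give annotation, strandedness or filters. A signal for each group stands in the deposited table, under headers that call it a base mean. The table matches averages of the recovered counts divided by size factors. Its fold is the authors' ratio of group means, given also as log2, per the file headers. Its p-value columns are the authors' p and adjusted p, per the file headers, and its title names DESeq. Benjamini-Hochberg adjustment of the p column gave back the adjusted p to within 3.14e-15.

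A pair of whole counts was found for every group mean, within 1e-09. All 16376 genes had exactly 1 solution per group (100%), with residuals of at most 5.09e-11. The main calls are the authors', at an adjusted p under 0.05. limma 3.58.1 in R 4.3.3 was fitted to all genes on log2(normalized count + 1) with trended variances, with Benjamini-Hochberg adjustment. Adjusted p-values that name no table are limma's. Lengths and shared 50-base words came from GENCODE release 29, matched for 85.1% of genes.

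Members and lists were chosen with earlier results of these data known. Named genes are all members, other S100 symbols, each list's 5 genes (neighbours, 3) of smallest adjusted p with a mean of at least 50, all genes called in a list, ANXA2, and the 3 genes most like S100P. Alternatives were pseudocounts of 0.5 and 5, other scalings, a minimum mean of 50, thresholds of 0.01 and 0.1, leaving out each library and, added later, the length correction.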

Additional observations from a re-analysis of the deposited data

How the results depend on the processing

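No paired analysis was possible because the recovered libraries carry no replicate numbers. The length correction was fitted only to the 13933 genes with a length, so its calls are out of fewer genes. Over all genes, 1178 calls became 642 at a threshold of 0.01, and in limma 671, 663 and 685 (pseudocounts of 1, 0.5 and 5), 669 and 655 (scaled by total counts and upper quartile), 460 (genes of mean at least 50), 716 (length correction) and 284 to 3641 with a library left out. The count of S100 genes called, 1, was 0 among genes of mean at least 50, where S100P is not fitted, and 1 to 6 with a library left out. With a library left out, median log2 differences ranged from 0.17 to 0.43 for the 10 S100 genes, 0.013 to 0.11 for the partners, 0.18 to 0.23 for the annexins, 0.084 to 0.17 for the other EF-hand genes and 0.032 to 0.055 for the cluster neighbours. Without the deeper Control the median of the 9 S100A genes was 0.069, below the annexins at 0.18 and the other EF-hand genes at 0.084. With another library left out the S100A median was 0.26, 0.36 or 0.38, above both of those lists each time. The annexins stood at 0.17 after the length correction. The neighbours stood at 0.027 after it, 0.027 scaled by total counts and 0.064 by the upper quartile. S100A16 reversed to -0.0015 without the deeper Control, and ranged up to 0.48 with another library left out. S100P ranged from 3.20 (pseudocount of 5) to 4.54. With 2 libraries per group and up to 3 reads of S100P in a Control library, its fold is imprecise. For 5 of the 9 S100A genes the difference was smaller than that between the Control libraries.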
